A study of Mus musculus with 25 samples.

Results

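The machinery of synaptic vesicle release was followed through 43 genes, chosen by name for their roles in tethering, docking, priming, fusing, filling and retrieving vesicles, out of 24421 gene symbols counted. The choice was made with earlier results of these data known. A gene was kept where it reached a CPM (its count scaled to the size of the library) of 1 or more in at least 3 libraries. All 43 passed, all 43 were also among the 15912 genes tested, and the lowest value of any of them in any library was above the minimum. The study measured hippocampal RNA by sequencing in mice heterozygous for Scn1a (Scn1a+/-), a model of Dravet syndrome, a childhood epilepsy. Scn1a encodes a voltage-gated sodium channel of inhibitory neurons, and the labels give no further detail of the allele, which every cell of a heterozygous animal carries. The 129S6/SvEvTac strain (129S6 here) is known as resistant to seizures, and the [129S6/SvEvTac x C57BL/6]F1 hybrid (F1 here) as susceptible. At postnatal day 14 (P14), 129S6 had 2 wild-type and 3 Scn1a+/- libraries, and F1 had 3 of each. At postnatal day 24 (P24), 129S6 had 3 libraries labelled wild type and 3 labelled Scn1a+/-, while F1 had 3 wild-type libraries, 2 from Scn1a+/- mice without seizures and 3 from Scn1a+/- mice with seizures. Every library was a pool, of 12 to 16 mice in the groups without seizures and of 3 to 4 mice in the seizure group, so seizures and pool size cannot be told apart. When the seizures took place before collection is not given in the sources used here.

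At a presynaptic terminal, transmitter is loaded into vesicles by transporters, the vesicles are gathered by synapsins and Rab3 proteins, and active zone scaffolds hold them beside calcium channels. Priming factors and complexins ready the SNARE complex, synaptotagmins sense calcium and trigger fusion, and the membrane is then retrieved by endocytosis while the SNARE proteins are taken apart for reuse. In the hippocampus, pyramidal and granule neurons use the glutamate transporter Slc17a7, interneurons release GABA, and the set of isoforms is known to change as synapses mature.

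The libraries held 7436442 to 25520050 counts. The 12 dentate granule cell markers, the 8 markers of CA1 and the 11 of CA2 and CA3 were all above 0 in every library, and Prox1, the transcription factor of granule cells, lay between 87.2 and 125 CPM. Scn1a served as the check of the labels. It averaged 98.1 CPM in Scn1a+/- and 111 in wild type in P14 129S6, 91.1 and 103 in P14 F1, and 104 and 127 in P24 F1, with 79.9 in the seizure libraries. In P24 129S6 it went against the labels, where the mean was 140 CPM for the label Scn1a+/- and 110 for the label wild type. The names of the deposited files give these 6 libraries the opposite genotype, and the corresponding 6 columns of the authors' normalized table match the count file of the other titled genotype. Groups here follow the titles, so these libraries are called by their label, although all 3 of these sources go with the opposite genotype. Under the opposite genotype the sign of their genotype difference would turn. Comparisons of age and strain average the genotypes and do not change with the reading. Replicates are separate pools, and each p-value uses a spread between pools estimated over all 9 groups together. The seizure p-values therefore do not measure the spread between seizure pools alone. Between pairs of replicates the chi-square per degree of freedom, which grows as libraries differ more, was 21.1 to 46.7 in the seizure group. In the other groups it was 2.55 to 9.88.

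Per kilobase of exon, the members covered a wide range of levels, each given as the mean over 25 libraries. Cplx2, a complexin, was the most abundant at 392 CPM per kb. Slc17a7, which encodes the vesicular glutamate transporter of hippocampal principal neurons, followed at 290, and the vesicle SNARE Vamp2 at 236. Syp, a vesicle membrane tetraspanner, stood at 158 and Snap25, a SNARE of the plasma membrane, at 148. The lowest were Rims3 at 1.34, Sv2c at 1.14 and Syt2 at 0.658 CPM per kb. Within families the order was steep. Among the transporters Slc17a6 stood at 6.17 CPM per kb with Slc17a8 below it, and among the priming factors Unc13a stood at 28.4, Unc13c at 6.24 and Unc13b at 3.40. The length is the union of all annotated exons, 9041 bases for Unc13c and 22777 for Unc13b, so the order of this pair depends on it. In CPM, Unc13b averaged 72.7 and Unc13c 43.7 in P24 F1 wild type. At P14 they averaged 77.5 and 75.8 in F1 wild type, and 75.1 and 80.6 in 129S6 wild type. In GENCODE, which need not be the annotation used for counting, some genes share exonic bases with a neighbour. Reads there could be given to either gene or to neither. The share was 22.7% of Syn3 (Timp3 and Fbxo7), 18.3% of Syt12, 18.0% of Rab3a, 16.7% of Unc13a and 10.1% of Syn2 (Timp4).

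The 250 bases before the start of 5 members are shown because these genes carry the age, strain and seizure results or, for Syn1, hold the motifs searched. They are from RefSeq on GRCm38.p6, the assembly of mm10, written 5′ to 3′ on the gene's own strand, and a match to a motif in the window is in capitals.
Slc17a6 (chr7:51621580-51621829, plus strand): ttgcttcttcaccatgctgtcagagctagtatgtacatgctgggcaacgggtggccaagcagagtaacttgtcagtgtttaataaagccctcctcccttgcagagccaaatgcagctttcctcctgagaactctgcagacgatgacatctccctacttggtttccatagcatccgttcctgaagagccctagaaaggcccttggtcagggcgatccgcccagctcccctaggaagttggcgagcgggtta
Vamp1 (chr6:125215331-125215580, plus strand): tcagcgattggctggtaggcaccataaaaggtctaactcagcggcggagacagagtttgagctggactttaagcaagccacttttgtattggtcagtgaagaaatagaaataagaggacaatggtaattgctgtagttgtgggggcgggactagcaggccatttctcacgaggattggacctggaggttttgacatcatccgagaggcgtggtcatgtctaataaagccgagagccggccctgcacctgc
Rab3b (chr4:108878820-108879069, plus strand): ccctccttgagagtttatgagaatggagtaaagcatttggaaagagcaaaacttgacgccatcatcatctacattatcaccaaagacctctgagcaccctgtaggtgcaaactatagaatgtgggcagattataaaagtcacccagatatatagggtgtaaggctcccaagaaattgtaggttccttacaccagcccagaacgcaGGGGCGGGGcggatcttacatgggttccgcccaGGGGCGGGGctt
Sv2c (chr13:96132578-96132827, minus strand): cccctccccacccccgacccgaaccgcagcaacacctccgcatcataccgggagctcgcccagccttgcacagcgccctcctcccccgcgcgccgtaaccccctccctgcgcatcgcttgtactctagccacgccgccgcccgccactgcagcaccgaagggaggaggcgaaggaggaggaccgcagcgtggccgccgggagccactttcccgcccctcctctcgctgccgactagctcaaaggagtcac
Syn1 (chrX:20920919-20921168, minus strand): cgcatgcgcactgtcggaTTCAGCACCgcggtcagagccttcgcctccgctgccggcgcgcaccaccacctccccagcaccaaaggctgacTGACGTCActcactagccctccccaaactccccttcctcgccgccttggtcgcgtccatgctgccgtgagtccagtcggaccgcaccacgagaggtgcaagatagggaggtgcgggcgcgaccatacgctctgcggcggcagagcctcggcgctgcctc

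Windows were found for 35 members, and 4 motifs were searched on both strands. The GC box (GGGGCGGGG), a site of SP factors, was in 10 of the 35 windows (28.6%) and in 10.38% of 32851 promoters of the same length. The CRE (TGACGTCA), the cAMP response element, was in 1 member, Syn1, 159 bases before its start, and in 1.55% of all promoters. The left part of the RE1 site (TTCAGCACC), bound by the neuronal repressor REST, was again in Syn1 alone, 232 bases before its start, and in 0.30% of all promoters. An AP-1 site (TGANTCA) was in Rph3a alone and in 6.75% of all promoters. Rab3b held 2 GC boxes, 45 and 12 bases before its start, while Slc17a6, Vamp1 and Sv2c held none of the 4 motifs. The median GC content of the members' windows was 61.2%, against 52.4% over all promoters. A match is a description of the letters in the window.

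From P14 to P24 in 129S6, the largest changes among the members were falls of the priming factor Unc13c (from a mean of 80.1 to 38.9 CPM) and of Slc17a6, Syn3, Stx1a and Sv2c, and rises of Vamp1, Snap25 and Sypl. Of the 43 members 10 rose and 10 fell at an adjusted p under 0.05 (edgeR's quasi-likelihood test, Benjamini-Hochberg over all genes tested), where 34.3% of all genes tested were called, 17.3% higher and 17.1% lower. The median log2 change of the members was 0.03, against 0.01 over all genes tested. In F1 11 rose and 9 fell, where 38.4% of all genes were called, 19% higher and 19.4% lower, and the medians were -0.04 and 0.00. Across the 2 strains, 7 members were called higher in both, 8 lower in both, and 19 in neither.

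**Figure D1:**
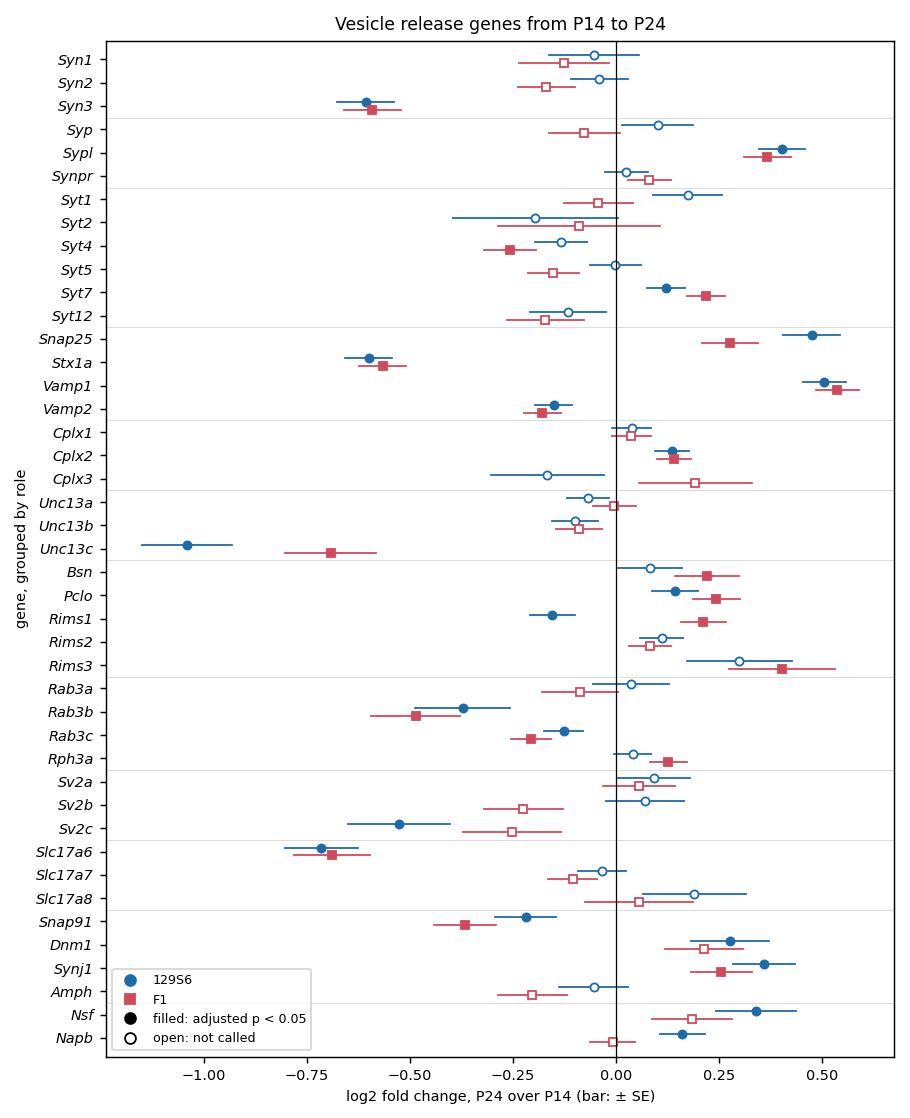
Log2 fold change of each of the 43 genes from P14 to P24 (x axis) in 129S6 (blue circles) and F1 (red squares), with bars of ± SE, genes grouped by role on the y axis, and filled symbols for an adjusted p under 0.05. Unc13c, Slc17a6, Syn3 and Stx1a lie furthest to the left in both strains and Vamp1 furthest to the right, while Rims1 lies on opposite sides of 0.

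The priming factors ready docked vesicles for fusion. Unc13c stood at 77.4, 81.8 and 79.8 CPM in the P14 129S6 Scn1a+/- libraries and at 82.1 and 79.0 in wild type, and at P24 its 6 libraries ran from 34.2 through a median of 39.7 to 42.3. Every P24 library lay below every P14 library. The log2 change was -1.04 ± 0.11 (SE), with an adjusted p of 4.36e-09 by edgeR. In F1 the range was 61.5 to 83.4 CPM at P14 and 33.7 to 52.6 at P24, again without overlap, and the log2 change was -0.69 ± 0.11 (adjusted p 6.76e-06, edgeR). Unc13a and Unc13b, the other members of the family, were not called in either strain, with log2 changes from -0.10 to 0.00. In bulk tissue, fewer cells of a type and less RNA per cell cannot be told apart, here and in every result that follows.

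The 4 SNARE genes encode the proteins that pull vesicle and plasma membrane together. All 4 were called in both strains, 2 in each direction, where 34.3% of all genes were called in 129S6 and 38.4% in F1. Vamp1, the synaptobrevin known mostly from brainstem and spinal cord, ran from 79.0 through 83.7 to 102 CPM in P14 129S6 and from 116 through 121 to 122 at P24. No P24 library reached down to the P14 range. Its log2 change was 0.51 ± 0.05 in 129S6 (adjusted p 3.33e-09, edgeR) and 0.54 ± 0.05 in F1 (6.75e-10). Vamp2, the main synaptobrevin of forebrain terminals, fell by a small amount, with log2 changes of -0.15 ± 0.05 and -0.18 ± 0.05 and no overlap in either strain. Snap25 ran from 1229 to 1372 CPM in P14 129S6 and from 1711 to 1949 at P24, a log2 change of 0.47 ± 0.07 (adjusted p 1.79e-06, edgeR). In F1 its P24 range, 1276 to 1722 CPM, overlapped the P14 range, and the log2 change of 0.28 ± 0.07 lost its call without Scn1a+/- replicate 1 of P24 F1 (0.16, adjusted p 0.0590). Its partner Stx1a, a syntaxin, ran the other way. It spanned 138 to 165 CPM at P14 and 95.4 to 101 at P24 in 129S6, and its log2 change was -0.60 ± 0.06 there and -0.57 ± 0.06 in F1, with separate ranges in both.

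Among the transporters that fill vesicles with glutamate, Slc17a6, the type used by thalamic and other subcortical neurons and by many young neurons, was alone in changing. In P14 129S6 it ran from 46.2 through 46.6 to 62.9 CPM and at P24 from 25.8 through 29.2 to 39.2. The ranges did not overlap, and the log2 change was -0.71 ± 0.09 (adjusted p 1.27e-07, edgeR). In F1 the ranges were 39.7 to 45.5 and 23.3 to 29.8 CPM, and the log2 change was -0.69 ± 0.09 (adjusted p 3.84e-07, edgeR). Slc17a7, the abundant transporter of this tissue, had log2 changes of -0.03 and -0.10 and was not called, nor was Slc17a8. In lists of markers for cells that use Slc17a6, some genes fell too and others were not called. Of 16 measured thalamic and habenular markers 6 fell and 1 rose with age in 129S6, where 17.1% of all genes fell and 17.3% rose. The 18 on the list summed to 223 to 236 CPM in P14 129S6 and 175 to 195 at P24. Of 9 Cajal-Retzius markers 5 fell and none rose in each strain, where 17.1% of all genes fell in 129S6 and 19.4% in F1. Those that fell included Reln (113 to 75.9 CPM in 129S6) and Calb2 (69.3 to 45.8). The list summed to 246 to 258 CPM at P14 and 176 to 197 at P24 in 129S6. Defining markers of both lists were near 0 in P24 129S6, with Pou4f1 averaging 0.178 CPM and Lhx5 0.187. The part of these cells in the change of Slc17a6 was not tested.

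Synapsins tether vesicles into a reserve pool. Syn3, the synapsin known from young neurons, ran from 75.7 through 80.5 to 88.6 CPM in P14 129S6 and from 50.5 through 51.5 to 57.3 at P24. The ranges were separate, with a log2 change of -0.61 ± 0.07 (adjusted p 2.08e-08, edgeR), and in F1 it was -0.59 ± 0.07 (3.61e-08). Syn1 and Syn2 were not called in either strain. Timp3, which shares exonic bases with Syn3, was not called in either strain, at log2 changes of 0.03 and 0.02. Of the vesicle tetraspanners, Sypl, a relative of synaptophysin that is also expressed outside neurons, rose in both strains, from a P14 range of 42.7 to 44.0 CPM to 55.9 to 60.7 at P24 in 129S6. Its log2 changes were 0.40 ± 0.06 and 0.37 ± 0.06. Syp and Synpr were not called. All 14 oligodendrocyte markers rose with age in each strain, where 17.3% of all genes rose in 129S6 and 19% in F1. They went from a sum of 6402 to 7201 CPM in P14 129S6 to 13569 to 15021 at P24. All 10 immature neuron markers fell, where 17.1% of all genes fell in 129S6 and 19.4% in F1. The part of these shifts in the members' changes was not tested.

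Of the Rab3 proteins, small GTPases that ride on vesicles, Rab3b and Rab3c fell in both strains, Rab3b with log2 changes of -0.37 ± 0.12 and -0.49 ± 0.11, while Rab3a was not called. In 129S6 the Rab3b call was lost without Scn1a+/- replicate 3 of P14 (adjusted p 0.0586). Sv2c, a glycoprotein of the vesicle membrane, fell in 129S6, from a range of 8.66 to 11.0 CPM to one of 5.84 to 8.50, with a log2 change of -0.53 ± 0.12 (adjusted p 0.00108, edgeR). In F1 it had -0.25 ± 0.12 and was not called, and the difference between strains was not called. In 129S6 the endocytosis genes Synj1, a lipid phosphatase that uncoats vesicles, and Dnm1, the GTPase that pinches them off, rose with log2 changes of 0.36 ± 0.07 and 0.28 ± 0.10, and Snap91, a clathrin adaptor, fell by 0.22 ± 0.07. Nsf and Napb, which take SNARE complexes apart, also rose there, with 0.34 ± 0.10 and 0.16 ± 0.05. In F1 Synj1 rose and Snap91 fell (0.26 and -0.37), Dnm1, Nsf and Napb were not called, and the Synj1 call was lost without Scn1a+/- replicate 1 of P24 F1 (adjusted p 0.0914). Syt7, the calcium sensor of slow release, and Cplx2 rose in both strains with log2 changes between 0.12 and 0.22. The Syt7 call in 129S6 and that of the scaffold Pclo rested on thin margins, with adjusted p of 0.0414 and 0.0491, and each was lost without any of several single libraries, the adjusted p of Syt7 reaching 0.203 without wild-type replicate 2 of P14. Without wild-type replicate 2 of P14 the 129S6 calls of Rab3c (0.140) and Dnm1 (0.109) were lost too, without replicate 1 those of Napb (0.0873), Cplx2 (0.0708) and Snap91 (0.0690). In F1 the calcium sensor relative Syt4 fell (-0.26 ± 0.06) and Rph3a rose (0.13 ± 0.05), and both, with Cplx2, lost the call without Scn1a+/- replicate 2 of P24 F1 (0.0526, 0.191 and 0.0515).

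The active zone scaffolds position vesicles beside calcium channels, and more of them were called in F1 than in 129S6. In F1 4 of 5 rose with age, where 19% of all genes rose. They were Rims3 (0.40 ± 0.13), Pclo (0.24 ± 0.06), Bsn (0.22 ± 0.08) and Rims1 (0.21 ± 0.05). In 129S6 1 was called higher (Pclo) and 1 lower, where 17.3% of all genes rose and 17.1% fell. The log2 changes of 4 of the 5 were positive there too, up to 0.30. Without Scn1a+/- replicate 2 of P24 F1, Rims3 (adjusted p 0.0953) and Bsn (0.136) were no longer called, nor was Bsn without P14 Scn1a+/- replicate 3 (0.0563) or wild-type replicate 1 (0.0605). Rims1, which links Rab3 to calcium channels and to Unc13 proteins, ran from 123 through 144 to 146 CPM in P14 F1 and from 156 through 163 to 167 at P24. In 129S6 it ran from 142 through 151 to 174 CPM at P14 and from 130 through 142 to 149 at P24. The F1 ranges were separate and the 129S6 ranges overlapped, and in 129S6 the gene fell, with a log2 change of -0.15 ± 0.05 (adjusted p 0.0251, edgeR), a call lost in 4 fits without 1 library, the weakest being that without wild-type replicate 1 of P14 (-0.11, adjusted p 0.205).

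Whether age acted differently in the strains was tested directly. By edgeR 0 of the 43 members were called, 5 had an unadjusted p under 0.05, and 1 gene of all tested was called (0.00628%). Rims1 had the smallest p of the members, with a difference of 0.37 ± 0.08 between the age changes and an adjusted p of 0.236. It was called by DESeq2 (adjusted p 0.0187), without the low-count filter (0.0180) and in the fit without the seizure libraries (0.00214, where 0.268% of all genes were called). The call for Rims1 therefore depended on the fit.

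**Figure D2:**
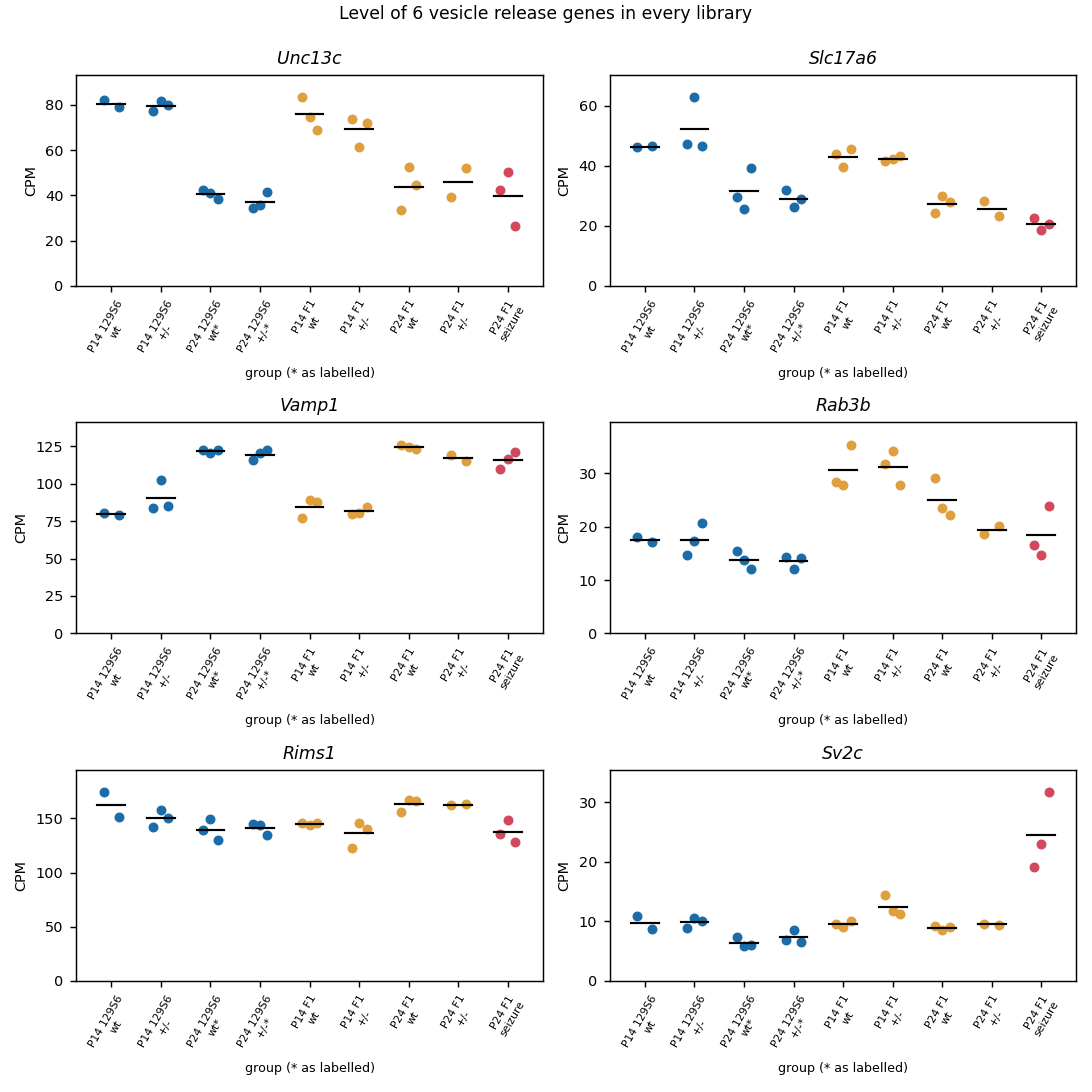
CPM (y axis) of 6 genes in each of the 25 libraries (points), with group means as black lines, for 129S6 (blue), F1 without seizures (orange) and F1 with seizures (red); groups marked * carry the genotype of their label. Unc13c and Slc17a6 are lower and Vamp1 higher at P24, Rab3b is higher in F1, and Sv2c lies between 19.1 and 31.7 CPM in the seizure libraries.

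Between the strains, Rab3b stood out among the members. In P14 F1 it measured 31.8, 34.3 and 27.8 CPM in the Scn1a+/- libraries and 28.5, 27.8 and 35.4 in wild type. In P14 129S6 the values were 14.8, 17.3 and 20.7 in Scn1a+/- and 18.1 and 17.1 in wild type. All F1 libraries lay above all 129S6 libraries, and the log2 difference was 0.80 ± 0.11 (adjusted p 8.14e-06, edgeR). It was the only member called at P14, where 3.7% of all genes were called, 2.04% higher and 1.66% lower. At P24 it was again higher in F1, at 18.7 to 29.1 CPM against 12.1 to 15.4, with a log2 difference of 0.68 ± 0.11 (adjusted p 9.43e-05, edgeR). An RNA gene overlaps 8.41% of the exonic bases of Rab3b. At P24 2 other members were called, Sv2c (0.43 ± 0.12, adjusted p 0.0301) and Rims1 (0.21 ± 0.05, adjusted p 0.0117), and 6.33% of all genes were called, 3.46% higher and 2.87% lower. Sv2c lay at 8.50 to 9.61 CPM in F1 and at 5.84 to 8.50 in 129S6, and its call was lost in 7 fits that left out 1 library, with the adjusted p reaching 0.129 without Scn1a+/- replicate 2 of P24 F1. Rims1 too lost its call without that library (adjusted p 0.0607), which left 1 member called, with 2.6% of all genes called. Without Scn1a+/- replicate 1, 8 members were called, 2 higher and 6 lower in F1, with 8.35% of all genes called. In the fit without the seizure libraries 2 members were called at P14 and 10 at P24, where 6.32% and 13.4% of all genes were called. In fits of the compared groups alone the counts were 4 and 9, where 6.86% and 12.6% of all genes were called.

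The genotype itself, in mice without seizures, was tested 4 times, and edgeR and DESeq2 called 0 of the 43 members each time. Of all genes tested edgeR called 0 as well (0%), with 391 genes at an unadjusted p under 0.05 in P14 129S6, 724 in P14 F1, 471 in P24 129S6 and 889 in P24 F1. Among the members, 1 had such a p in each of the first 3 and 3 had it in P24 F1. In P14 129S6 that member was Vamp1, at 83.7, 102 and 85.1 CPM in Scn1a+/- and 80.5 and 79.0 in wild type, a log2 difference of 0.18 (unadjusted p 0.0285 by edgeR's model across all genes, adjusted p 1). Next were Rims1 (-0.11) and Syt2 (0.39), not called. In P14 F1 it was Sv2c, at 14.5, 11.7 and 11.3 CPM in Scn1a+/- and 9.57, 9.06 and 10.1 in wild type, a log2 difference of 0.39 (adjusted p 0.994, edgeR), followed by Napb (0.13) and Synpr (0.13). In P24 129S6 it was Cplx3, a complexin of low abundance, at 5.37, 4.52 and 5.77 CPM under the label Scn1a+/- and 8.09, 5.44 and 7.80 under the label wild type, with overlap, with -0.41 (adjusted p 1.00, edgeR), followed by Sv2c (0.20) and Unc13b (0.08). These signs hold for the labels and would turn under the genotype of the file names.

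In P24 F1 most members were lower in Scn1a+/- than in wild type by amounts that did not pass the test. Of the 43, 34 had a negative log2 difference, the median was -0.12 against 0.00 over all genes, and 16 had both Scn1a+/- libraries below all wild-type libraries, a pattern seen in 14.8% of all genes. Dnm1 measured 909 and 757 CPM in Scn1a+/- and 1180, 977 and 991 in wild type, Syt12 21.6 and 17.3 against 26.1, 23.9 and 22.3, and Rab3b 18.7 and 20.1 against 29.1, 23.5 and 22.2. The groups did not overlap for any of these 3, and their log2 differences were -0.33 ± 0.14, -0.32 ± 0.14 and -0.36 ± 0.16, each with an adjusted p of 0.833 by edgeR. The members moved together within the groups too: Scn1a+/- replicate 2 held the lower value for 30 members (69.8%, against 51.7% of all genes tested) and wild-type replicate 1 the highest for 30 (69.8%, against 36.9%). Some other lists moved with this difference and others overlapped. Reactive astrocyte genes summed to 954 and 1040 CPM in Scn1a+/- and 737 to 807 in wild type, and microglia markers to 617 and 669 against 558 to 608. Interneuron markers summed to 1348 and 1422 against 1423 to 1634, a narrow separation. Thalamic and habenular (178 to 181 against 190 to 205), neocortical (641 to 650 against 668 to 705) and striatal markers (81.8 to 89.0 against 90.5 to 98.4) were also lower without overlap. So were choroid plexus and ependymal (690 to 777 against 968 to 1051) and leptomeningeal markers (135 to 145 against 158 to 170). Pan-neuronal markers overlapped, at 7270 and 6659 against 7101 to 7208. So did the markers of dentate granule cells (661 to 678 against 658 to 690) and of CA1 (980 to 1119 against 1116 to 1270). Those of CA2 and CA3 (621 to 688 against 687 to 749), astrocytes and oligodendrocytes overlapped as well. The part of these lists in the members' difference was not tested. The median was -0.14 without Scn1a+/- replicate 1 and -0.06 without replicate 2. When the seizure libraries were kept out of the fit, edgeR called 5 members lower, namely Dnm1 (-0.33), Syn1 (-0.31), Rab3a (-0.27), Sv2a (-0.26) and Syp (-0.26), where 1.27% of all genes were called and 0.688% were called lower.

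The seizure libraries differed among themselves in these genes. Replicate 3 held the highest value of the 3 for 33 members (76.7%, against 36.2% of all genes tested) and replicate 2 the lowest for 29 (67.4%, against 34.3%). The summed level of the members was 17039, 15522 and 21348 CPM in replicates 1, 2 and 3, and 17768 to 19396 in wild type. Syn1, for example, stood at 342, 273 and 578 CPM, and at 368 to 436 in wild type. The median log2 difference of the members from their wild-type mean was -0.19 in replicates 1 and 2 and 0.16 in replicate 3. Other lists moved between the same libraries: oligodendrocyte markers summed to 11754, 16959 and 10908 CPM, reactive astrocyte genes to 3962, 3696 and 2970 (737 to 807 in wild type), and immediate early genes, which neurons induce when they fire, to 1060, 1319 and 1692 (735 to 772 in wild type). Their part in the results below was not tested. Values without replicate 3 are given beside the seizure results.

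**Figure D3:**
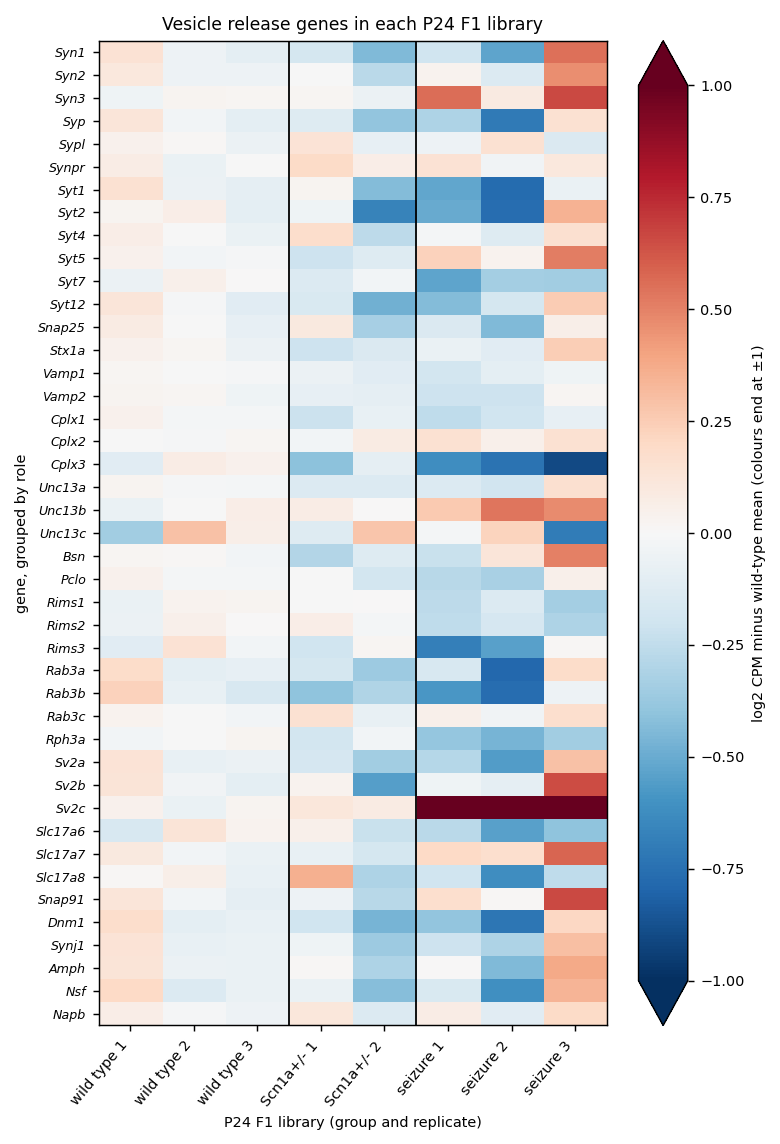
Log2 CPM minus the wild-type mean (colour, ending at ±1) of each of the 43 genes (rows, grouped by role) in each P24 F1 library (columns: 3 wild type, 2 Scn1a+/- without seizures, 3 Scn1a+/- with seizures). Most genes are blue in seizure libraries 1 and 2 and red in library 3 (medians -0.19, -0.19 and 0.16), while Sv2c is red and Cplx3, Syt7 and Rph3a are blue in all 3.

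In mice with seizures, Sv2c rose more than any other member against both comparison groups. Syn3, Unc13b, Slc17a7, Syt5 and Snap91 also rose against both, and Syt7, Rph3a, Rims1 and Rims2 fell. The calls of Syt5 and Snap91 over wild type and of Rims1 over Scn1a+/- were lost without seizure replicate 3. Against Scn1a+/- mice without seizures 8 members rose and 4 fell, where 15.7% of all genes were called, 8.72% higher and 7% lower. Against wild type 6 rose and 9 fell, where 22.5% of all genes were called, 12.4% higher and 10.1% lower. The medians were 0.06 and -0.10, against 0.01 over all genes in each. These comparisons share the seizure libraries, and their values are set side by side only. In fits of the compared groups alone, 1 member (Sv2c) and 6 members were called, where 4.05% and 10.4% of all genes were called. Every other member's call against Scn1a+/- was lost there.

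**Figure D4:**
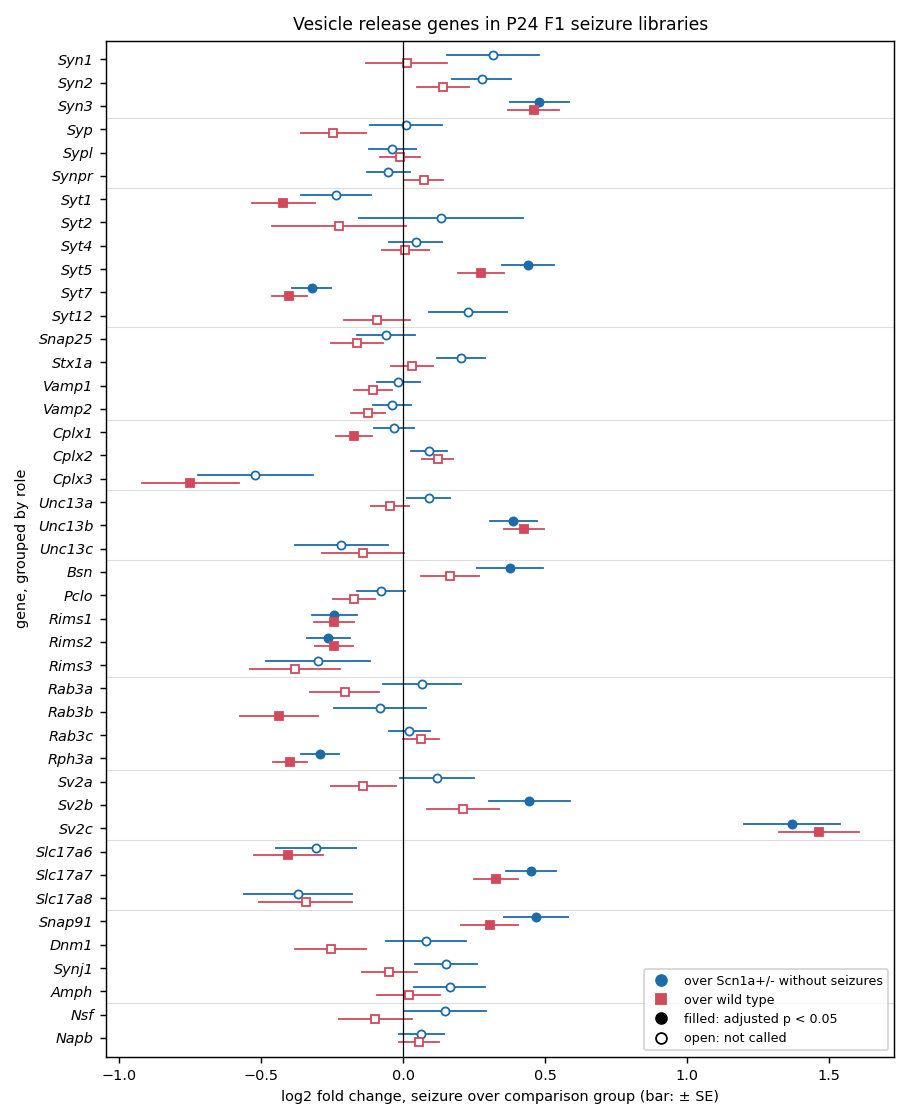
Log2 fold change of each of the 43 genes (y axis, grouped by role) in the seizure libraries over Scn1a+/- without seizures (blue circles) and over wild type (red squares), with bars of ± SE and filled symbols for an adjusted p under 0.05. Sv2c stands alone at 1.37 and 1.46, and Cplx3 lies lowest at -0.52 and -0.75.

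The SV2 glycoproteins are carried by every synaptic vesicle, and the family is known for Sv2a, the binding site of the antiseizure drug levetiracetam. Sv2c, the member most known from the basal ganglia, measured 19.1, 23.0 and 31.7 CPM in the seizure libraries, 9.61 and 9.44 in Scn1a+/- without seizures and 9.17, 8.50 and 9.07 in wild type. Every seizure library was above every other P24 F1 library. The log2 difference was 1.37 ± 0.17 over Scn1a+/- (adjusted p 2.92e-07, edgeR) and 1.46 ± 0.14 over wild type (1.14e-09). Without replicate 3 it was 1.13 over Scn1a+/- and 1.23 over wild type, and called in both. Markers of the striatum moved with it, summing to 112, 120 and 129 CPM in the seizure libraries, 81.8 and 89.0 in Scn1a+/- and 90.5 to 98.4 in wild type. Of the 10 tested, 3 rose against wild type, where 12.4% of all genes rose. These were the dopamine receptor Drd1 (21.3 against 5.22 CPM), Ppp1r1b (49.8 against 39.5) and Serpina9 (2.22 against 0.0742). Drd2 and Adora2a averaged 1.90 and 2.87 CPM and were not called. The part of these markers in the rise of Sv2c was not tested. Sv2b measured 387, 375 and 628 CPM, against 410 and 273 in Scn1a+/- and 374 to 436 in wild type. Its groups overlapped, and its call over Scn1a+/- (0.44 ± 0.14, adjusted p 0.0303) was lost without replicate 3 (0.15, adjusted p 0.334), without Scn1a+/- replicate 2 (0.17, 0.594) and in DESeq2 (0.0916). Sv2a was not called over either group, with log2 differences of 0.12 and -0.14, and without replicate 3 it was called lower than wild type (-0.43 ± 0.08).

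Syn3 measured 82.4, 59.5 and 88.2 CPM, above the 53.6 to 56.9 of all 5 P24 F1 libraries without seizures. Its log2 differences were 0.48 ± 0.10 over Scn1a+/- (adjusted p 0.00108, edgeR) and 0.46 ± 0.09 over wild type (0.000219), and without replicate 3 they were 0.35 and 0.33, both called. Immature neuron markers moved with it, summing to 530 to 585 CPM in the seizure libraries, 363 to 383 in Scn1a+/- and 334 to 365 in wild type. Of the 10, 4 rose against Scn1a+/- and 6 against wild type, where 8.72% and 12.4% of all genes rose. The part of these markers in the rise of Syn3 was not tested. Unc13b, a priming factor of hippocampal terminals, measured 87.0, 105 and 101 CPM, above the 69.4 to 76.5 of the libraries without seizures. Its log2 differences were 0.39 ± 0.08 and 0.43 ± 0.07 (adjusted p 0.000932 and 3.34e-05, edgeR), and 0.35 and 0.39 without replicate 3. Unc13a and Unc13c were not called over either group. Slc17a7 measured 1788, 1743 and 2326 CPM against 1379 and 1479 in Scn1a+/- and 1483 to 1661 in wild type, so that all 3 seizure libraries were highest. The log2 differences were 0.45 ± 0.09 and 0.33 ± 0.08 (adjusted p 0.000422 and 0.00242, edgeR), and without replicate 3 they were 0.29 and 0.17 (adjusted p 0.00142 and 0.0313). Syn3, Unc13b and Slc17a7 all lost the call over Scn1a+/- in the fit of the compared groups alone.

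Slc17a6 moved the other way, at 22.6, 18.8 and 20.6 CPM in the seizure libraries, 28.2 and 23.3 in Scn1a+/- and 24.4, 29.8 and 27.9 in wild type. It was lower than wild type without overlap (-0.41 ± 0.12, adjusted p 0.0134, edgeR) and not called against Scn1a+/- (-0.31). The call was lost without seizure replicate 2 (-0.34, adjusted p 0.0631) and without wild-type replicate 2 (-0.35, 0.0705), and kept without replicate 3 (-0.42, 0.0114). The thalamic and habenular markers beside it summed to 151 to 161 CPM in the seizure libraries and to 190 to 205 in wild type. Of these, 5 of 16 were lower and none higher, where 10.1% of all genes were called lower. Cajal-Retzius markers summed to 159 to 223 CPM with seizures and 167 to 188 in wild type, with overlap. The part of these cells in this result was not tested.

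Among the calcium sensors and Rab3 partners, Syt7 and Rph3a were lowest in every seizure library. Syt7 measured 379, 431 and 428 CPM against 496 and 535 in Scn1a+/- and 522, 565 and 546 in wild type. Its log2 differences were -0.32 ± 0.07 and -0.40 ± 0.06 (adjusted p 0.000989 and 8.61e-06, edgeR). Rph3a, the Rab3 effector rabphilin, measured 302, 285 and 309 CPM against 346 and 386 in Scn1a+/- and 387 to 402 in wild type. No seizure library overlapped the others, and the differences were -0.29 ± 0.07 and -0.40 ± 0.06 (adjusted p 0.00185 and 5.40e-06, edgeR). Without replicate 3 the differences were -0.36 and -0.44 for Syt7 and -0.33 and -0.44 for Rph3a, all called. The call of Rph3a over Scn1a+/- was lost without Scn1a+/- replicate 2 (-0.22, adjusted p 0.0794), and both genes lost that call in the fit of the compared groups alone (adjusted p 0.310 for Syt7 and 0.356 for Rph3a).

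Syt5 measured 128, 112 and 156 CPM and was higher than Scn1a+/- (0.44 ± 0.09, and 0.29 without replicate 3) and wild type (0.27 ± 0.08), the latter lost without replicate 3 (0.12, adjusted p 0.168) and without wild-type replicate 2 (0.0592). Syt1, the fast calcium sensor, measured 752, 633 and 1030 CPM against 1012 to 1194 in wild type, and its call (-0.42 ± 0.11, adjusted p 0.00495, edgeR) was lost without seizure replicate 2 (-0.28, adjusted p 0.0543), while the difference was -0.65 without replicate 3. Rab3b, at 16.6, 14.6 and 24.0 CPM, overlapped wild type at 22.2 to 29.1. Its call against wild type (-0.44 ± 0.14) was lost without seizure replicate 1, without seizure replicate 2 or without wild-type replicate 1, with adjusted p of 0.0733, 0.135 and 0.127, and was -0.69 without replicate 3. Snap91 measured 380, 340 and 533 CPM, and its rise of 0.47 ± 0.11 over Scn1a+/- was lost without Scn1a+/- replicate 2 (0.35, adjusted p 0.125) and was 0.24 without seizure replicate 3 (0.0267). Its rise of 0.30 ± 0.10 over wild type was 0.08 without replicate 3 (adjusted p 0.460), and the call was also lost without wild-type replicate 2 (0.0923) or 3 (0.128).

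Of the active zone scaffolds, Rims1 and Rims2 were lower in the seizure libraries than in either group without overlap. Rims1 measured 136, 148 and 128 CPM against 162 and 163 in Scn1a+/- and 156 to 167 in wild type, with log2 differences of -0.24 ± 0.08 and -0.24 ± 0.07. Its call over Scn1a+/- was lost without seizure replicate 3 (-0.21, adjusted p 0.0610) and without Scn1a+/- replicate 1 (0.0881) or 2 (0.145). Rims2 had -0.26 ± 0.08 and -0.24 ± 0.07, the former lost without Scn1a+/- replicate 1 (adjusted p 0.112), and without replicate 3 it had -0.25 and -0.23. Bsn was higher than Scn1a+/- (0.38 ± 0.12), at 511, 647 and 845 CPM with overlap, and lost that call without seizure replicate 3 (0.16, adjusted p 0.242) and without either Scn1a+/- library (0.265 and 0.0529). Of the complexins, which clamp and promote fusion, Cplx3 measured 5.08, 4.68 and 4.19 CPM against 7.21, 8.21 and 8.06 in wild type. It was lower without overlap, with -0.75 ± 0.17 (adjusted p 0.00136, edgeR), and -0.69 without replicate 3. Against Scn1a+/- it had -0.52 ± 0.20 and was not called. Cplx1 fell by 0.17 ± 0.06 against wild type, near the threshold (adjusted p 0.0442), and lost the call without any of 5 single libraries, the adjusted p reaching 0.123 without seizure replicate 1, while without replicate 3 it had -0.24.

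The counts of members that rose and fell changed with single seizure libraries. Without replicate 3, 27 of the 43 were called against wild type, 4 higher and 23 lower, where 30% of all genes were called, 14.7% higher and 15.3% lower, and the median of the members was -0.22. The members called lower only then included Dnm1 (-0.57 ± 0.09), Syp (-0.51 ± 0.08), Rab3a (-0.46 ± 0.10), Sv2a, Nsf (-0.39 ± 0.10), Syn1 (-0.37 ± 0.09), Pclo (-0.31 ± 0.06) and Snap25 (-0.30 ± 0.08). Of the 15 called with all libraries, 13 were still called. Against Scn1a+/- 13 were called without it, 6 higher and 7 lower, of which 9 were among the 12, and 17.5% of all genes were called, 8.78% higher and 8.73% lower. Without replicate 2 the counts moved the other way. Against wild type 8 members were then higher and 5 lower, with a median of 0.02, where 18.3% of all genes were called, 10.3% higher and 8.04% lower. Against Scn1a+/- 14 were higher and 4 lower, with a median of 0.14, where 16.8% were called, 9.83% higher and 6.96% lower. Sv2c, Syn3, Unc13b and Slc17a7 rose against wild type with and without replicate 3.

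The calls for age and seizure can be set side by side, since the age comparison in 129S6 shares no library with the F1 seizure comparisons. Of the 10 members that rose with age, 0 were higher and 1 was lower in the seizure libraries, against either group. Of the 10 that fell with age, 3 were higher against either group, namely Syn3, Sv2c and Snap91, while 1 was lower against Scn1a+/- and 3 against wild type. Among all genes tested, 7.91% of those that rose with age were higher and 23.5% lower than wild type in seizure libraries, and of those that fell 23.8% were higher and 8.00% lower. Against Scn1a+/-, 7.61% of those that rose were higher and 16.3% lower, and of those that fell 15.1% were higher and 5.60% lower.

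A further list of vesicle cycle genes, 88 of which were measured, gives the setting. With age 19 rose and 20 fell in 129S6, that is 44.3% of the list where 34.3% of all genes were called, and 12 rose and 28 fell in F1 (45.5%, against 38.4%). Erc1, an active zone scaffold, fell in both (-0.58 ± 0.06 and -0.68 ± 0.06), as did Doc2a, a calcium sensor of spontaneous release (-0.64 and -0.58). The synuclein Sncg rose from 1.43 to 3.51 CPM in 129S6 (1.32 ± 0.26) and Syt10 in both strains (0.68 and 0.47). In the seizure libraries 18 rose and 9 fell against Scn1a+/- (30.7%, against 15.7% of all genes), and 17 rose and 13 fell against wild type (34.1%, against 22.5%). Rimbp2, which ties scaffolds to calcium channels, averaged 260 CPM with seizures, 136 in Scn1a+/- and 143 in wild type, with log2 differences of 0.94 ± 0.09 and 0.86 ± 0.07. Slc18a2, the vesicular monoamine transporter, rose by 0.92 ± 0.19 and 1.00 ± 0.16, and Cltb, a clathrin light chain, by 0.67 and 0.54. Baiap3 (-1.25 and -1.34), Syt10 (-0.92 and -1.05) and Doc2b, a high-affinity calcium sensor (-0.67 and -0.74), fell most. None of the 88 was called for genotype by edgeR, where 12 had an unadjusted p under 0.05 in P24 F1 and 0 to 2 in the others. Between strains 1 was called at P14 (1.14%, against 3.7%) and 7 at P24 (7.95%, against 6.33%), led by Hspa8 (1.55 at each age), a chaperone with many near-identical copies whose counts are uncertain.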

How the data were processed

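Total RNA was taken from frozen hippocampi with TRIzol and made into libraries with an Illumina TruSeq RNA kit, per the labels' protocols. That kit does not mark strand, so reads of a gene and of an antisense or overlapping partner cannot be told apart. CASAVA, TopHat2 2.1.0, HTSeq 0.6.1p1 and the build mm10 are listed, with no roles, in the submitters' processing notes. For the annotation and the counting mode, nothing was given in the sources used here. The values used are raw read counts per gene that the authors deposited for each of 25 libraries. The authors' deposited table of normalized values (unit: signal) served only to match columns to count files.

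Groups follow the sample titles. The 15912 genes passing edgeR's filterByExpr (minimum count 10) were fitted with TMM scaling and a coefficient for each of 9 groups (R 4.3.3, edgeR 4.0.16, limma 3.58.1, quasi-likelihood test), with Benjamini-Hochberg adjustment and a threshold of 0.05. CPM use effective library sizes, and age and strain contrasts average genotypes. The common biological coefficient of variation was 7.57%. Depth limits genes of a few CPM most. The script was tested on simulated data. Alternatives were DESeq2 1.42.0, RLE scaling, other low-count filters, fewer groups in the fit and leaving out each library.

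Members and lists were chosen with earlier results of these data known. Full values are given for up to 10 called members of largest change per comparison, or for the 3 of smallest p where none was called, plus their families, and from the further vesicle cycle list for up to 3 genes in each direction. Coordinates and promoters are RefSeq's (GRCm38.p6), matched by symbol. Exonic lengths are from GENCODE. A marker gene result is not reported here.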

Additional observations from a re-analysis of the deposited data

How the results depend on the processing

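Counts of members called changed by over 1.5 times under these settings. For the age difference between strains, 0 became 1 (Rims1) without the low-count filter, with DESeq2, with only the compared groups in the fit and without the seizure libraries in the fit. For strain at P14, 1 became 4 with only the compared groups and 2 without the seizure libraries, and at P24 3 became 9 and 10. For genotype in P24 F1, 0 became 5 without the seizure libraries. For seizures against Scn1a+/-, 12 became 1 with only the compared groups, and against wild type 15 became 6. Calls over all genes tested moved with these counts, to 6.86% and 12.6% for strain and 4.05% and 10.4% for seizures with only the compared groups. Leaving out 1 library gave 14 to 19 members for age in 129S6, 16 to 23 in F1, 0 for the age difference, 1 for strain at P14, 1 to 8 at P24, 0 for each genotype comparison, 9 to 18 for seizures against Scn1a+/- and 11 to 27 against wild type. Where this left a group with 1 library, that library is assumed to vary like the other groups. No called log2 change turned its sign under any alternative run. No paired analysis was possible because the numbers in the titles run through the whole series and pair no libraries. Depth limits genes of a few CPM, such as Syt2, Cplx3 and Slc17a8.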
